A study of Mus musculus with 6 samples.

Results

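The genes described here encode feedback inhibitors of mitogen-activated protein kinase (MAPK) signalling: the dual-specificity phosphatases Dusp1, Dusp4, Dusp5 and Dusp6, the Sprouty proteins Spry1, Spry2 and Spry4, and the Sprouty-related proteins Spred1 and Spred2. These 9 genes were chosen by name, and each was read through the Affymetrix probe sets that the platform annotation assigns to it alone, 24 in all. Of the 9, 8 had a probe set above the filter on dim signals and were tested among 12279 genes, out of 18193 genes that the annotation names. The cells were mouse lung endothelial cells kept at 0.5% oxygen for 16 h. The knockout group (3 arrays) was labelled as lacking HIF-2α, the product of Epas1 and a transcription factor stabilised when oxygen is low, and came from animals with both Epas1 copies floxed and a Cre recombinase driven by the VE-Cadherin promoter, which is active in endothelial cells. The control group (3 arrays) is described in different ways by the labels: Cre-positive with a floxed and an intact copy, floxed on both copies, or wild type. Low oxygen was common to all 6 arrays, and no array gives a level at normal oxygen. Whether arrays of a group came from separate animals or cultures is not stated, so p-values measure the spread between these arrays, which may be technical.

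Growth factor receptors activate Ras, which switches on the kinase cascade that ends in ERK, and active ERK induces genes whose products then dampen the same cascade. DUSPs remove phosphate from both the threonine and the tyrosine that activate a MAPK. Sprouty and Spred proteins act further upstream, between the receptor and the Raf kinases. In endothelium this loop limits the response to VEGF and FGF, and the RNAs of several of its genes are short-lived, so their levels are often read as a sign of recent ERK activity.

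Stretches before the annotated start of 3 phosphatase genes are shown because 2 of them, Dusp1 and Dusp6, were lower in knockout arrays and Dusp5 was not. They hold 250 bases each, from RefSeq on build GRCm38.p6, printed 5′ to 3′ on the gene's strand (chr17:26508473-26508722, minus strand for Dusp1; chr10:99262981-99263230, plus strand for Dusp6; chr19:53528895-53529144, plus strand for Dusp5). Capitals mark matches on either strand to TGACG (a half-site of the cAMP response element), CCGGAA (an ETS core), ACGTG or GCGTG (hypoxia response element cores), or the CArG box bound by serum response factor.
Dusp1: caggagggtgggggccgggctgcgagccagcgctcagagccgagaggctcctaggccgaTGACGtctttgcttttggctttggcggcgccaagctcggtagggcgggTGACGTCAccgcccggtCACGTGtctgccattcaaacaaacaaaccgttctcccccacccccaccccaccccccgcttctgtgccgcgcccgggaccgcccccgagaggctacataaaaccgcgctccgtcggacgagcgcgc
Dusp6: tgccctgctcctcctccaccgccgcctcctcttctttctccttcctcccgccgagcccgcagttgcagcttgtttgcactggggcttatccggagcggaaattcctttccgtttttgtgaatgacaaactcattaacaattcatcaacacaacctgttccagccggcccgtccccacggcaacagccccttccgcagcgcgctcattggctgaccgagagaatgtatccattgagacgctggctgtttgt
Dusp5: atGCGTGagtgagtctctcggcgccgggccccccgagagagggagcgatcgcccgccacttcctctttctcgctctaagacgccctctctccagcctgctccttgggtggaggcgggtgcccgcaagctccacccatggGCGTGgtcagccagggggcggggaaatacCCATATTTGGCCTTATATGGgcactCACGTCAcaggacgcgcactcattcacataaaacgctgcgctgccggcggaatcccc
In Dusp1, TGACG stood at position -191 before the start and again as an overlapping pair on opposite strands from -143 to -136, and ACGTG stood on both strands from -126 to -121. In Dusp5, 2 adjacent CArG boxes ran from -82 to -63, GCGTG stood at -248 and -111, and a reverse-strand TGACG at -55 overlapped a reverse-strand ACGTG at -57. None of these letters occurred in the Dusp6 stretch, and CCGGAA occurred in none of the 3. Only this form of the ETS core was searched, so other forms may be present. Among 32851 stretches of the same length in the RefSeq promoter table, 17.8% held TGACG, 12% CCGGAA, 16.6% ACGTG, 28.2% GCGTG and 1.47% a CArG box. All of these motifs except the CArG box contain CG. The median stretch held CG 6 times, against 28 in Dusp1, 21 in Dusp5 and 16 in Dusp6, so these shares are not a matched background. These matches are a description of letters in a window, and no binding was measured here. The table held 7 of the 9 genes, without Dusp4 and Spry4.

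The arrays of a group were not equally close. Across tested genes the SD of the log2 difference was 0.137 between controls 1 and 3, against 0.307 to 0.678 between the other pairs within a group, and knockout 3 and control 2 lay farthest from the rest of their groups. A bright Epas1 probe set read 8920, 9397 and 9859 intensity units in knockouts 1 to 3, against 9611, 9590 and 9444 in controls 1 to 3, so Epas1 RNA gave no check of the genotype. The position of its probes relative to the deleted part was not analysed here. None of the 12 endothelial markers listed was at the floor, meaning a signal under 16 in all arrays, although Vwf and Cldn5 were dim and Cldn5 read 15.2 in knockout 3. Their summed intensity ran from 136964 to 152498 in knockout and from 164216 to 177302 in control arrays, and Pecam1, Tie1 and Tek fell (log2 differences of -0.34, -0.65 and -1.24). All 10 mural and fibroblast markers and all 9 lung epithelial markers were at the floor, as were 7 of 9 leukocyte markers. Cd68, which carried most of the leukocyte sum (794 to 1220 in knockout and 3726 to 4290 in control arrays), fell, with a log2 difference of -2.01. The part of these marker shifts in the results below was not tested, and in bulk RNA fewer cells of a type and less RNA per cell cannot be told apart.

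Of the 8 tested feedback genes, Dusp1, Dusp6, Spry2 and Spry4 were lower in knockout arrays, 0 were higher, and Dusp4, Dusp5, Spred1 and Spred2 did not pass. Spry4 fell by 31.7%, Dusp1 fell by 21.8%, Spry2 fell by 12.3% and Dusp6 fell by 11.5%. A gene was called when its limma p stayed under 0.05 after Benjamini-Hochberg adjustment across the 12279 genes. By that rule 13.7% of all genes were called, 5.07% as lower and 8.64% as higher. At an unadjusted p under 0.05, 4 feedback genes were lower and Dusp4 was higher, beside 11.3% of all genes lower and 21.1% higher. The median log2 difference, knockout minus control, was -0.18 over the 8 genes and 0.0071 over all genes tested. No overlap between knockout and control arrays was seen in 5 of the 8 genes and in 36.2% of all genes. Genes at the floor were among those tested: Igf1r averaged 5.06 intensity units in knockout and 5.02 in control arrays. Spred2, the dimmest of the 8 feedback genes, averaged 1677 units in knockout and 1874 in control arrays. With a filter at 60%, limma called 1880 of 9447 genes (19.9%), 620 as lower, and 2 of the 8 feedback genes. The shares of all genes given here are therefore not matched for brightness.

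**Figure D1:**
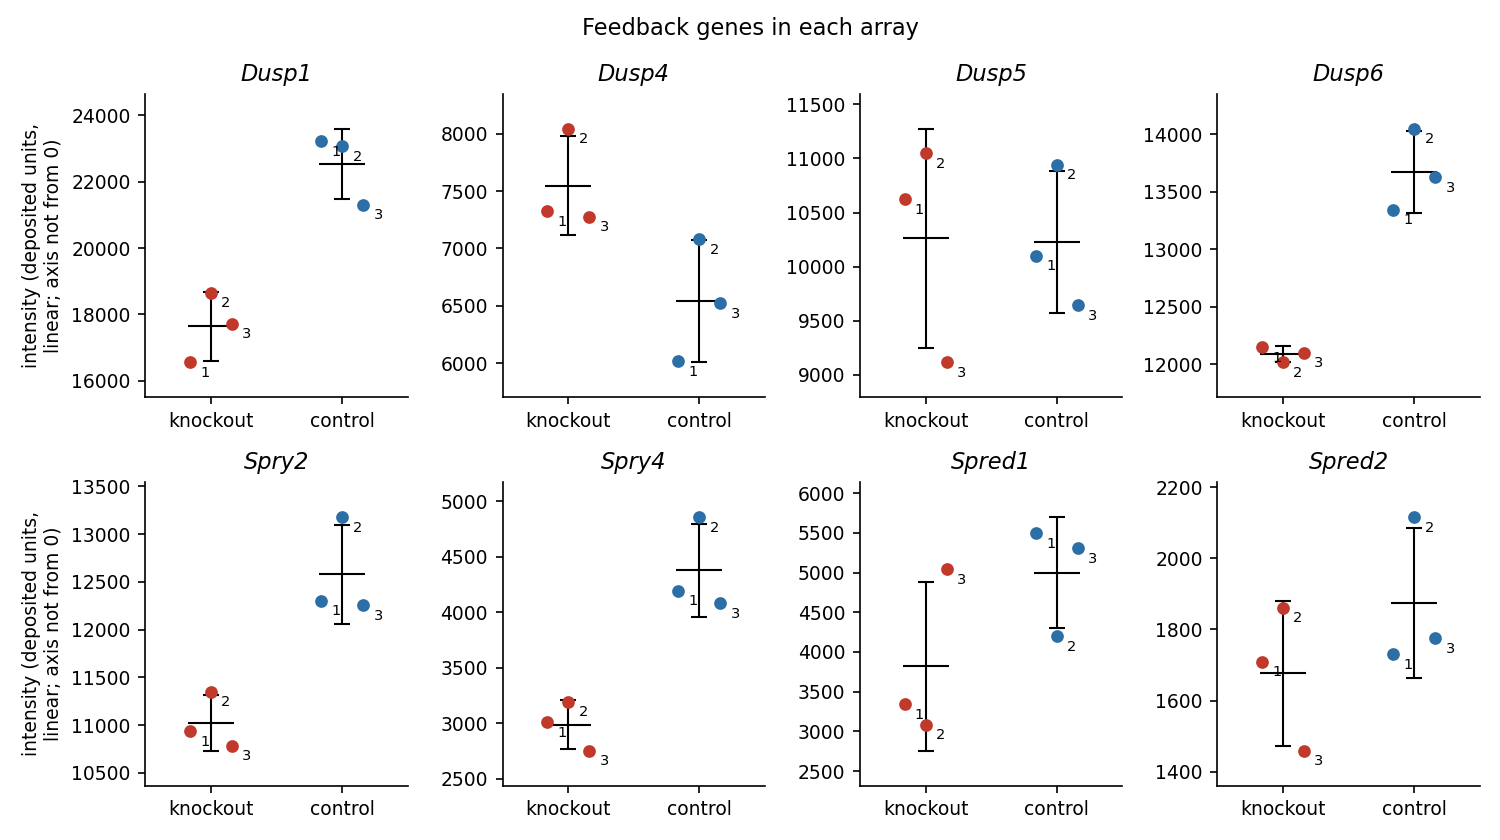
Intensity of the 8 tested feedback genes in each array (linear, deposited units; the axes do not start at 0), with knockout arrays on the left, control arrays on the right and the array number beside each point. Horizontal bars with whiskers are the mean ± SD of 3 arrays; Dusp1, Dusp6, Spry2 and Spry4 lie wholly lower in knockout arrays, Dusp4 wholly higher, and knockout 3 stands near the controls for Spred1.

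Among the phosphatases, Dusp1 encodes a nuclear enzyme that acts on p38, JNK and ERK and is itself an immediate early gene. Its probe set read 16558, 18647 and 17713 intensity units in knockouts 1 to 3, against 23226, 23078 and 21310 in controls 1 to 3. Every knockout array lay below every control array. The means were 17639 ± 1046 in knockout and 22538 ± 1066 in control arrays (SD, n = 3 each). On the log2 scale Dusp1 differed by -0.35 ± 0.06 (SE; limma adjusted p = 0.0305).

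Dusp6 encodes the cytoplasmic phosphatase that is selective for ERK and is widely used as a readout of ERK output. It read 12150, 12018 and 12101 intensity units in knockouts 1 to 3, against 13344, 14049 and 13627 in controls 1 to 3. The groups did not overlap, and the knockout arrays lay very close together, with an SD of 0.552% of their mean against 2.59% in controls. The log2 difference was -0.18 ± 0.02 (limma adjusted p = 0.0199), so the smallest of the 4 called decreases had the lowest p. That p depended on the small SE. With a trended and robust variance model the SE was 0.04 (limma adjusted p = 0.0506). With a filter at 60% it was 0.08 (limma adjusted p = 0.146), and Dusp6 passed in neither.

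Dusp4 and Dusp5 encode inducible nuclear phosphatases, the second selective for ERK, and neither passed. Dusp4 read 7323, 8045 and 7276 intensity units in knockouts 1 to 3, against 6018, 7079 and 6525 in controls 1 to 3. Every knockout array lay above every control array, opposite to Dusp1 and Dusp6, but the log2 difference of 0.21 ± 0.08 had a limma adjusted p = 0.146, with a 95% interval of 0.0059 to 0.41 before adjustment. Dusp5 read 10623, 11047 and 9118 units in knockouts 1 to 3, against 10100, 10941 and 9643 in controls 1 to 3. The groups overlapped, and the log2 difference of 0.0020 ± 0.09 had a 95% interval from -0.24 to 0.25.

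Of the Sprouty genes, Spry4 had the largest difference of the feedback genes that passed. Its product, like that of Spry2, is recruited to the membrane after growth factor stimulation and restrains Ras and Raf activation. Spry4 read 3007, 3192 and 2752 intensity units in knockouts 1 to 3, against 4194, 4858 and 4083 in controls 1 to 3. The highest knockout array was below the lowest control array, and the log2 difference was -0.55 ± 0.09 (limma adjusted p = 0.03). The further tested probe sets of Spry4 gave log2 differences of -0.53 and -0.57, neither called over 27022 probe sets (limma adjusted p = 0.0794 and adjusted p = 0.263). All 3 tested probe sets of Spry4 separated the groups, while 1 more was at the floor. In the dimmest of the 3 the gap was narrow, from 180 units in knockout 1 to 181 in control 3. The 3 read the same RNA and are not replicates, and the share of all probe sets without overlap was not counted.

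Spry2 read 10937, 11349 and 10787 intensity units in knockouts 1 to 3, against 12305, 13180 and 12254 in controls 1 to 3. The groups did not overlap, and the gap from the highest knockout to the lowest control array was narrow. The log2 difference was -0.19 ± 0.04 (limma adjusted p = 0.0466). When each probe set was tested by itself, Spry2 no longer passed (limma adjusted p = 0.061). A dim second probe set read 26.9, 28.1 and 27.4 units in knockouts 1 to 3, against 25.4, 43.9 and 27.5 in controls 1 to 3, and its groups overlapped. The single probe set of Spry1 was listed at 3.82 to 3.84 units in all 6 arrays, far under the floor, and was not tested.

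Spred1 encodes a membrane adaptor that brings neurofibromin, a Ras inactivator, to the plasma membrane, and its values depended on which array was read. The brightest probe set gave 3342, 3081 and 5041 intensity units in knockouts 1 to 3, against 5494, 4200 and 5309 in controls 1 to 3. Knockouts 1 and 2 lay below every control array, whereas knockout 3 lay above control 2. The log2 difference of -0.41 ± 0.23 did not pass (limma adjusted p = 0.296). The same order recurred in its other probe sets: knockouts 1 and 2 were below every control in all 7 tested probe sets, and knockout 3 was the brightest knockout in all 7 and brighter than control 2 in 6. Control 2 was the dimmest control in all 7. The dimmest of these probe sets read 5.8, 5.8 and 13.4 units in knockouts 1 to 3, against 29.9, 13.3 and 57.4 in controls 1 to 3. Its order of knockout 3 and control 2 therefore rests on values under 16. The log2 differences ran from -0.41 to -1.06, with 0 of 7 called by limma at the probe set level and none at an unadjusted p under 0.05. These probe sets read the same RNA and are not replicates. Without knockout 3 the log2 difference of the brightest was -0.63 (limma adjusted p = 0.0549). Without knockout 3 and control 2 together it was -0.75. Those arrays were chosen once the arrays had been compared. They are the ones that made the groups overlap, so leaving both out is no test of Spred1.

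Spred2, a related adaptor, read 1709, 1861 and 1460 intensity units in knockouts 1 to 3, against 1731, 2116 and 1775 in controls 1 to 3. The groups overlapped, and the log2 difference of -0.16 ± 0.13 (limma adjusted p = 0.445) had a 95% interval from -0.49 to 0.17. A second probe set also overlapped between the groups, with a log2 difference of -0.08. The other 3 probe sets of Spred2 were at the floor in every array.

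**Figure D2:**
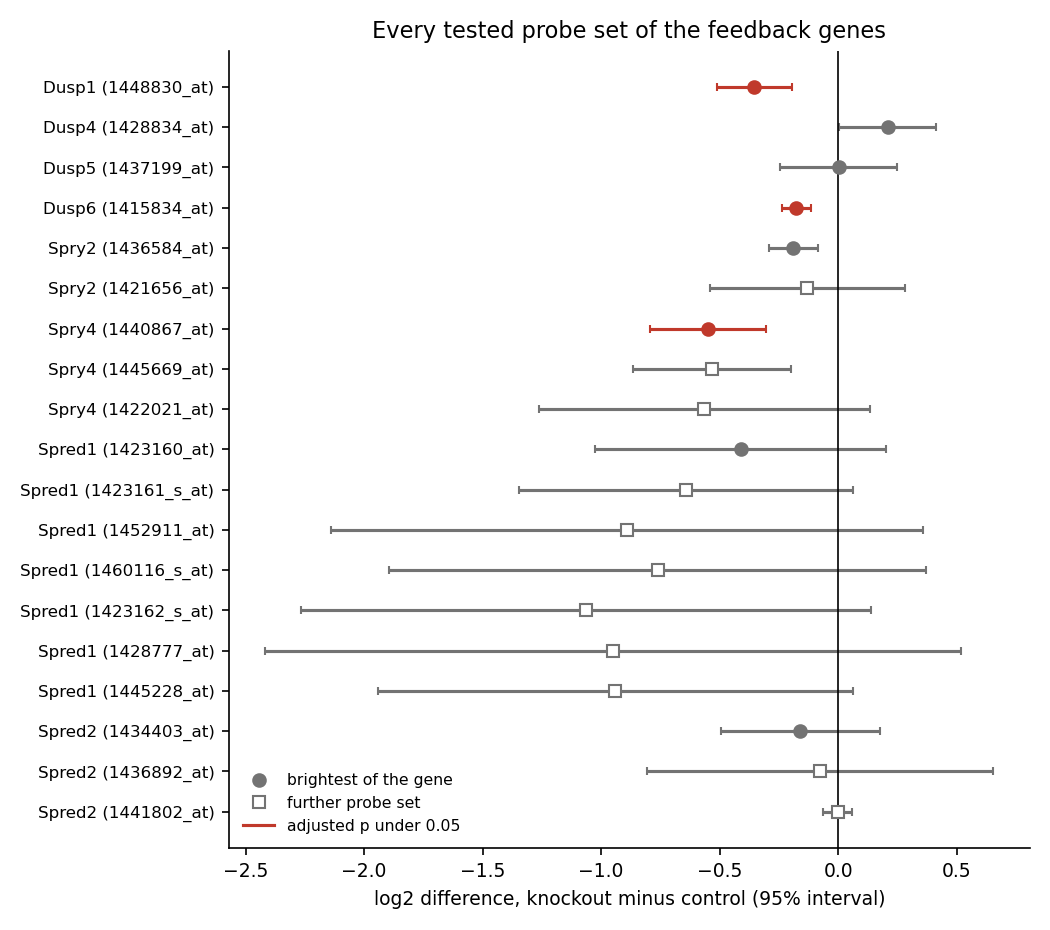
Log2 difference, knockout minus control, with its 95% interval for the 19 tested probe sets of the feedback genes, from limma over 27022 probe sets. Filled circles mark the brightest probe set of each gene, open squares the others, and red those with an adjusted p under 0.05. Of the 19, 3 were called, and the 7 from Spred1 read the same RNA.

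Over the 19 tested probe sets, those of Dusp1, Dusp6 and the brightest of Spry4 were called lower and 0 higher, beside 7.65% of all probe sets called and 3.19% called lower. Within groups, knockout 2 was the brightest knockout array in 6 of the 8 genes and in 62.0% of all genes tested, and control 2 the brightest control array in 6 of the 8 and in 50.7% of all genes. The feedback genes were not shown to differ from other genes in this. Spred1 ran against this, with control 2 its dimmest control and knockout 2 its dimmest knockout array. That order was not particular to Spred1. Braf read 51, 39 and 503 units in knockouts 1 to 3, against 564, 221 and 719 in controls 1 to 3. Sos1, Rasa1, Rps6ka3 and Map3k2, from the lists described below, had the same order, and its share over all genes was not counted.

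The calls were tested again with each array left out. Dusp1 passed without knockout 2 or knockout 3, Dusp6 without control 2 or knockout 3, Spry4 without knockout 3, and Spry2 with no single array left out. The number of called feedback genes was 0 without control 1, control 3 or knockout 1, where 4 still had an unadjusted limma p under 0.05 (as did 21.8%, 21.5% and 23.1% of all genes), 1 without control 2 or knockout 2, and 3 without knockout 3. The log2 differences themselves moved little: from -0.39 to -0.31 for Dusp1, from -0.19 to -0.16 for Dusp6, from -0.21 to -0.16 for Spry2 and from -0.60 to -0.47 for Spry4. Over all genes, 206 to 3003 were called with an array left out.

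**Figure D3:**
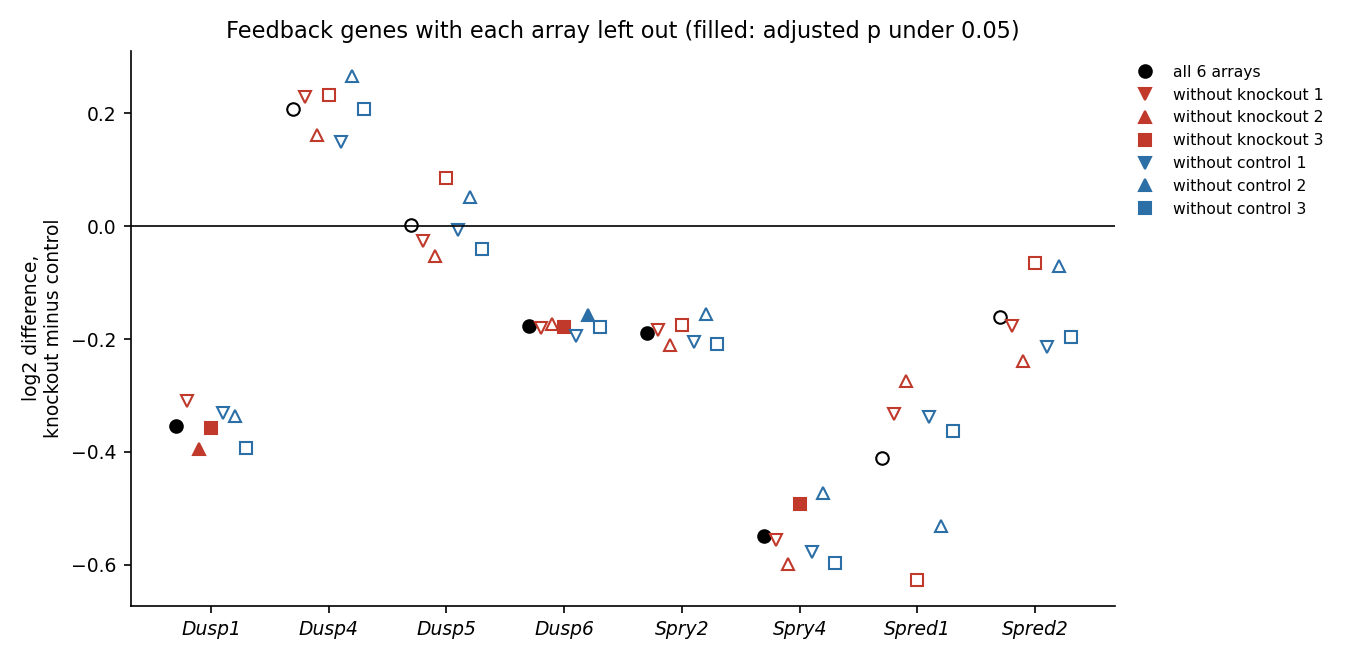
Log2 difference, knockout minus control, of the 8 tested feedback genes with all 6 arrays and with each array left out in turn (red, knockout array left out; blue, control array left out). Filled symbols have an adjusted p under 0.05; Dusp1, Dusp6, Spry2 and Spry4 stay below 0 throughout, with Spry4 between -0.60 and -0.47.

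The level of the bacterial spike-in probe sets bioB and bioC, labelled control transcripts added before hybridisation, was higher on average in knockout arrays, although the groups overlapped. It was 11.02, 11.07 and 10.85 on the log2 scale in knockouts 1 to 3, against 10.64, 10.87 and 10.76 in controls 1 to 3. With this level as a covariate, the log2 difference was -0.75 for Spry4 (limma adjusted p = 0.0421), -0.36 for Dusp1, -0.21 for Dusp6 and -0.27 for Spry2 (limma adjusted p = 0.155, adjusted p = 0.0717 and adjusted p = 0.0697), and that of Spred1 turned to 0.13. Of the 4 called genes, 1 passed with the covariate, and none of the 4 moved towards 0. The uncalled Dusp4, Dusp5 and Spred2 also shifted downward, to 0.04, -0.19 and -0.46. Over all genes limma called 441 with the covariate, 277 of them lower, against 1684 and 623 without it. Because the level partly followed the groups, its part and that of the knockout cannot be fully told apart.

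Other genes around the ERK pathway were read from lists of known members. Of 16 other tested dual-specificity phosphatases, 1 fell and 3 rose, with a median log2 difference of -0.12. Dusp9, an ERK-selective cytoplasmic phosphatase like Dusp6, read 159, 241 and 120 intensity units in knockouts 1 to 3 and was under the floor in every control array. It was at least 10.4-fold higher (limma adjusted p = 0.00713). Dusp8, which acts on p38 and JNK, averaged 183 ± 58.7 units in knockout and 461 ± 55.7 in control arrays (log2 difference -1.29 ± 0.24, limma adjusted p = 0.0344). As the mean of its probe sets, the log2 difference of Dusp8 was smaller, at -0.63 (limma adjusted p = 0.0473). Dusp12 and the cofilin phosphatase Ssh3 rose, by 1.03 ± 0.21 and 1.15 ± 0.24 on the log2 scale (limma adjusted p = 0.0451 and adjusted p = 0.0471).

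Of 24 other tested inhibitors of receptor and Ras signalling, 2 rose and 2 fell, with a median log2 difference of -0.16. Errfi1, an inducible inhibitor of EGF receptors, read 16563, 16539 and 16551 units in knockouts 1 to 3, against 13660, 13577 and 13284 in controls 1 to 3. Its log2 difference of 0.29 ± 0.02 (limma adjusted p = 0.00356) was opposite in sign to those of Dusp6 and Spry2, and it passed whichever array was left out. Rasa3, which inactivates Ras and Rap, rose by 0.45 ± 0.09 on the log2 scale, while the ubiquitin ligase Cblb and the endocytic adaptor Dab2 fell by 0.85 ± 0.15 and 0.21 ± 0.03. Spred3, the closest relative of Spred1 and Spred2 on the list, averaged 254 ± 50.9 units in knockout and 358 ± 18.8 in control arrays and did not pass (limma adjusted p = 0.101); it was picked after its values were seen.

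Of 18 listed receptors upstream of ERK, 13 were tested, and Pdgfra, Pdgfrb and Igf1r among them were at the floor in all arrays. Among the 13, 5 fell and 0 rose, with a median log2 difference of -0.23 and none higher at an unadjusted limma p under 0.05. The VEGF receptors Flt1 and Flt4 fell by 0.72 ± 0.06 and 1.23 ± 0.11 on the log2 scale, the FGF receptor Fgfr1 by 0.98 ± 0.09 and the angiopoietin receptor Tek by 1.24 ± 0.15. Fgfr1 averaged 4110 ± 376 intensity units in knockout and 8135 ± 642 in control arrays. Kdr, the main signalling receptor for VEGF, averaged 7867 ± 720 units in knockout and 9210 ± 356 in control arrays and did not pass (limma adjusted p = 0.125); it was named after its values were seen. Of these, Flt1, Flt4 and Tek are genes that earlier results on these arrays had already shown lower.

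In the cascade from Grb2 and Sos to ERK, 0 of 21 tested genes were called by limma, and at an unadjusted p under 0.05 there were 3 lower and 3 higher, beside 11.3% and 21.1% of all genes. The median log2 difference was -0.0053. Nearest the threshold were the ERK kinase gene Map2k1 (0.21 ± 0.05, limma adjusted p = 0.0516) and the adaptor Gab2 (-0.63 ± 0.15, limma adjusted p = 0.058). Of 20 tested kinases of the p38, JNK and ERK5 branches, 2 fell and 1 rose, with a median of -0.0034. Map2k6, which activates p38, averaged 1556 ± 180 units in knockout and 3246 ± 143 in control arrays (log2 difference -1.06 ± 0.10, limma adjusted p = 0.0094). Map4k4 fell by 0.20 ± 0.04, and Mapk12, a p38 isoform, rose by 0.44 ± 0.08.

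Genes known to be induced by ERK activity went both ways, with 4 of 26 lower, 5 higher and a median log2 difference of 0.17. Egr3, an immediate early transcription factor, averaged 489 ± 84.1 units in knockout and 2473 ± 265 in control arrays (log2 difference -2.31 ± 0.16, limma adjusted p = 0.00478) and passed with each array left out. The AP-1 subunit Fosl2 fell by 0.40 ± 0.04 on the log2 scale. The EGF family ligand Hbegf and Phlda1, which is induced by growth factors, rose by 0.63 ± 0.07 and 0.60 ± 0.08. Counts of calls in these lists stand beside the share of all genes called, given above, which is not matched for brightness. Many of these calls depended on single arrays. Of the 6 fits with 1 array left out, Dusp12, Ssh3 and Map4k4 passed in 1, and Dusp8, Rasa3, Cblb, Dab2 and Mapk12 in 2. Tek, Fosl2, Hbegf and Phlda1 passed in 3, Dusp9, Flt4, Fgfr1 and Map2k6 in 4, and Flt1 in 5. As means of all probe sets of a gene, Cblb, Dab2, Fosl2 and Mapk12 no longer passed, with log2 differences of -1.49, -0.80, -0.27 and 0.32. With the spike-in covariate, Dusp9, Errfi1, Flt4, Fgfr1, Egr3 and Fosl2 still passed and the other called genes named from these lists did not, while Gab2 then passed. Among the calls lost with the covariate, the log2 differences of Flt1 (-0.73), Dusp8 (-1.74) and Map2k6 (-0.99) were about as large as before or larger. Those of Rasa3 (0.23), Ssh3 (0.65), Dusp12 (0.67), Mapk12 (0.28), Cblb (-0.55) and Dab2 (-0.14) were over 1.5 times smaller.

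**Figure D4:**
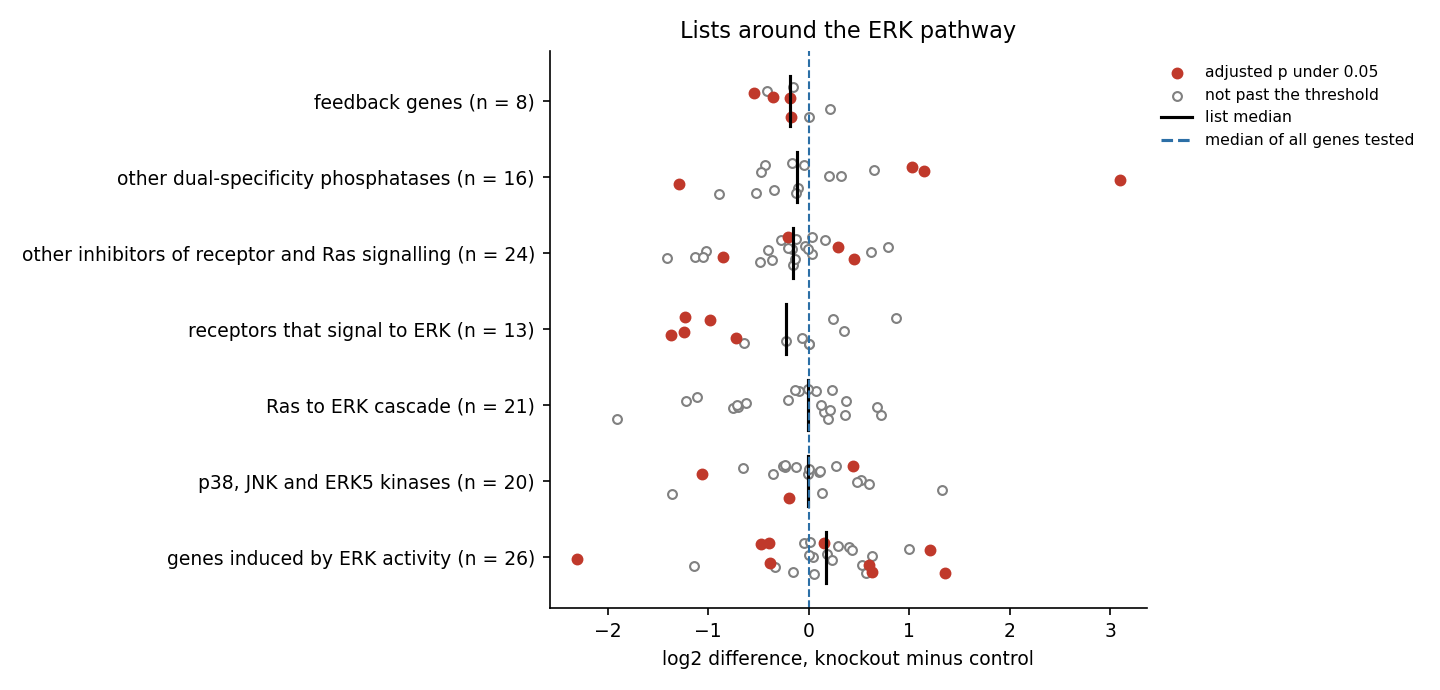
Log2 difference, knockout minus control, of each tested gene in the feedback list and 6 other lists around the ERK pathway (red, limma adjusted p under 0.05; open, not past it; vertical bars, list medians; dashed line, median of all genes at 0.0071). Vertical scatter within a list carries no meaning; the feedback genes lie between -0.55 and 0.21, while the ERK-induced list spans -2.31 to 1.35.

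The profiles closest to Dusp6 and Spry4 over the 6 arrays were found among 12278 genes by the root mean square difference of log2 values, each centred on its mean. For Dusp6 they were Mest (0.017), Ctsl (0.0209) and Cpsf7 (0.0224), with log2 differences of -0.19, -0.17 and -0.17. For Spry4 they were Plcg1, a phospholipase downstream of growth factor receptors (0.0333), BC028528 (0.0383) and Slc4a1ap (0.0429), with log2 differences of -0.51, -0.62 and -0.51. All 6 were called lower, and a close profile over 6 arrays that share a group difference is a description only.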

How the data were processed

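Per the labels' protocols, total RNA was amplified, biotin was attached as the label, and the product was read on Affymetrix arrays, 1 per sample. The authors deposited linear intensity values, 1 for each probe set in each array; MAS5 and GCRMA are named in the submitters' processing notes, with no steps or versions. Quantiles were nearly equal between arrays, so no further scaling was applied; many dim probe sets share a floor. The number of arrays limits the precision.

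Of 45101 probe sets, 64 were controls, 34945 others named 1 gene in the platform annotation, 932 several and 9160 none. Values were taken as log2(intensity + 16), so differences of dim genes are understated, and the 40% with the lowest mean were left out. Per gene the probe set with the highest mean log2 value was tested with limma 3.58.1 in R 4.3.3 (lmFit, eBayes, two-sided, Benjamini-Hochberg, threshold 0.05), after a check on simulated data. A fold against a group under 16 in all arrays is given against 16, as at least N-fold. Figures used matplotlib 3.10.9.

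The genes, lists and alternatives were chosen with earlier results of these data known. Named were all 9 genes, up to 4 called genes per list by smallest p (or the 2 nearest), the 3 closest profiles to 2 of them, and Epas1. Alternatives were other scalings, filters, pseudocounts, variance models, probe set summaries, a replicate block, the spike-in level and arrays left out.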

Additional observations from a re-analysis of the deposited data

How the results depend on the processing

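Of 20 alternatives, Dusp1, Dusp6 and Spry4 kept both direction and call in 12 each and Spry2 in 4; in the others they kept the direction without the call. Over all 20 the log2 difference ran from -0.47 to -0.31 for Dusp1, -0.21 to -0.15 for Dusp6, -0.27 to -0.14 for Spry2 and -0.75 to -0.42 for Spry4. The number of called feedback genes, 4 in the analysis as reported, was 1 without a filter, 2 with a filter at 60%, 2 with a trended and robust variance model, 2 with the mean of all probe sets of a gene, 1 with the spike-in level as covariate, and 0 with controls 1 and 3 averaged, where limma gave 4 at an unadjusted p under 0.05. With 1 array left out it was 0 to 3. The number of all called genes, 1684, became 893 without a filter, 8533 with array weights (whose estimation stopped before its tolerance was reached), 441 with the spike-in covariate (277 of them lower), 193 with controls 1 and 3 averaged, 206 to 3003 with 1 array left out, and 4631 without control 2 and knockout 3 together. With array weights, Dusp4 rose and Spred1 fell. Dusp5, near 0, turned to -0.0065 under quantile scaling, -0.19 with the spike-in covariate, -0.023 with controls 1 and 3 averaged, and -0.054 to 0.085 with 1 array left out (-0.0061 without control 1, -0.04 without control 3, -0.03 without knockout 1). Spred1 turned to 0.13 with the spike-in covariate and Spred2 to 0.025 without control 2 and knockout 3. Epas1 turned to 0.13 as the mean of its probe sets, 0.028 with the covariate, and -0.061 to 0.012 with 1 array left out. The cause of these changes was not tested.

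The labels number the arrays 1 to 3 in both groups. Deviations from the group means correlated across genes with r = -0.464, 0.844 and 0.804 for arrays of the same number, and knockout 1 correlated best with control 2, so the numbers were not taken as pairs. With the replicate number as a block, 2993 genes were called, and the number of called feedback genes was 4.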
